A study of Mus musculus with 2 samples.

Results

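The microRNA genes Mir192, Mir194-1, Mir194-2, Mir215, Mir204 and Mir211 encode miRNAs known from the epithelium of the kidney tubule and from a few other organs. They were found by symbol, through the Ensembl identifier of each table row, and the 6 genes are all of those sought among the 1973 miRNA genes in the count tables. The data are small RNA libraries from embryonic mouse kidney (strain B6NCrl, age 14.5 days), a stage when nephrons are starting to form. There was 1 group, embryonic kidney without treatment or mutation in the labels, with 2 biological replicates of 2 kidneys each and RNA of less than 30 nucleotides. The labels name a single pup per sample, but also pooled sexes, and both samples carry the same donor identifier, so neither the number of embryos in a sample nor whether the samples come from separate animals is settled. An SD or a ratio between the replicates here covers the spread of 2 samples only, part or all of which may be technical.

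A miRNA is cut from a hairpin in a longer transcript and loaded into an Argonaute protein, where its seed, bases 2 to 8, pairs with messenger RNAs and lowers their output. miR-192, miR-194 and miR-215 are known as abundant miRNAs of adult kidney cortex, liver and intestine, and p53 induces them in human cells. miR-204 and miR-211 lie inside genes of the TRPM channel family, and they are best known from the retinal pigment epithelium and, for miR-211, from melanocytes, with miR-204 also found in kidney epithelium.

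All 6 genes have an entry in the RefSeq miRNA table on build GRCm38.p6, and the mature sequences below show why the genes fall into 3 families and which of them can be told apart by reads. The seed is in capitals, and the sequences run 5′ to 3′.
miR-192-5p: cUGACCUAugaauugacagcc
miR-215-5p: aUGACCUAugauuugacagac
miR-194-5p: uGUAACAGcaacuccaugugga
miR-204-5p: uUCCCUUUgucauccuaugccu
miR-211-5p: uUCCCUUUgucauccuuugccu
The 5p strands carry 3 seeds. miR-192-5p and miR-215-5p share the seed UGACCUA and differ at 3 of 21 bases, C1A, A12U and C20A, counted from the 5′ end with the miR-192 base first. No other gene in the table of 1005 hairpins has a mature miRNA with that seed or with the miR-194-5p seed GUAACAG. miR-204-5p and miR-211-5p share the seed UCCCUUU and 21 of 22 bases, and their only difference is A17U, the miR-204 base first. That seed occurs once more, in miR-7670-3p, whose gene had 0 counts in both libraries.

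Mir194-2 and Mir194-1 both encode miR-194-5p. The longest stretch that their hairpins share is 22 bases, given here in capitals because it is the whole mature 5p strand and marks what a read of that arm can say about its origin.
Mir194-2 hairpin: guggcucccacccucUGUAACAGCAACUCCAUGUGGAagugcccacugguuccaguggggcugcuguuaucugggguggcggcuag
Mir194-1 hairpin: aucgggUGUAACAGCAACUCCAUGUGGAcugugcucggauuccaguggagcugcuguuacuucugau
A read made only of the capital bases matches both hairpins, and the tables tally reads with several mapping places apart from the genes. They were 27.5% of reads in replicate 2 and 28.3% in replicate 1, over all loci. The other arm differs between the hairpins at 4 of 22 bases, G8A, U19C, C20U and G22C, with the miR-194-2-3p base first:
miR-194-2-3p: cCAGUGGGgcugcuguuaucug
miR-194-1-3p: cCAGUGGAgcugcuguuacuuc
The data give 1 count per gene and do not say which arm was read. The counts of Mir194-2 and Mir194-1 are therefore uncertain and may be too low. Just after the capitals the base is a in Mir194-2 and c in Mir194-1. A read with an error or an added base there could be counted for the wrong gene, which was not tested. The remaining 4 hairpins share no stretch of 21 bases with another hairpin of the table. Mir204 and Mir211 share 17 bases at most, and Mir192 and Mir215 share 12 and 11 at most with any other hairpin of the table. These are exact stretches. The 5p strands of Mir204 and Mir211 differ only at A17U, so a read with an error at that base could be counted for the wrong gene, which was not tested.

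The 6 genes lie at 4 loci of mm10, all on the plus strand. Mir194-2 (ENSMUSG00000065582.1; chr19:6264643-6264728) and Mir192 (ENSMUSG00000065523.1; chr19:6264844-6264932) are 115 bases apart. They lie in no annotated gene of GENCODE M21, 2307 and 2508 bases from Atg2a. Mir194-1 (ENSMUSG00000065581.1; chr1:185313319-185313385) and Mir215 (ENSMUSG00000065562.1; chr1:185313581-185313692) are 195 bases apart. Mir194-1 is in an intron and Mir215 overlaps an exon of 2010103J01Rik, an antisense noncoding RNA, and both lie opposite an intron of Iars2, which encodes a mitochondrial isoleucyl-tRNA synthetase. Mir204 (ENSMUSG00000065507.2; chr19:22750605-22750672) is in an intron of Trpm3, and Mir211 (ENSMUSG00000065585.1; chr7:64205806-64205911) is in an intron of Trpm1, 7278 bases from Gm44719, a predicted gene. Each cluster thus holds a miR-194 hairpin followed by a hairpin with the UGACCUA seed, and their counts are set beside the map of the hairpins.

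**Figure D1:**
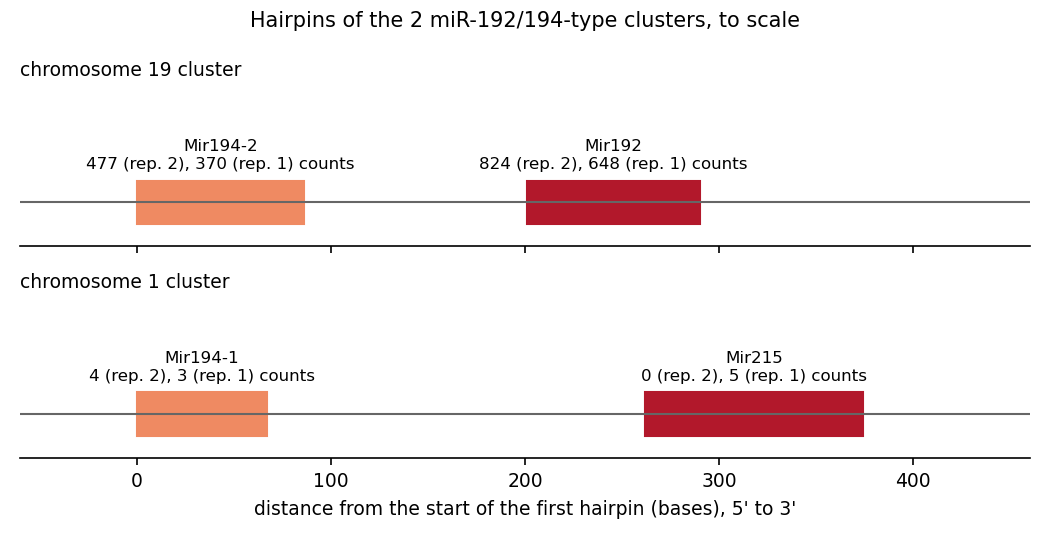
Hairpins of both clusters drawn to scale as boxes along the distance in bases from the start of the first hairpin, with the counts of each gene on its own strand in replicate 2 and replicate 1. The chromosome 19 cluster holds 1301 counts in replicate 2 and 1018 in replicate 1, and the chromosome 1 cluster holds 4 and 8.

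Libraries held 3683978 counts on the strand of the genes in replicate 2 and 5202588 in replicate 1. CPM is counts per 1000000 of these counts, and a gene with at least 10 counts in each replicate is called detected. As reads of such libraries are about as long as a mature miRNA, and the mature miRNAs here have 21 or 22 bases, levels of genes were compared without division by length. Intervals cover counting error only, and PCR reads counted without molecular identifiers may not be independent. The 6 miRNA genes of the Hox clusters summed to 251971 ± 1566 CPM (SD, n = 2), most of it from Mir10a at 144007 CPM and Mir10b at 71380 CPM. The 5 genes of the epithelial miR-200 family summed to 25144 ± 2342 CPM. Without another tissue to compare, these sums do not show which tissue was sampled. Mir202, a gonadal miRNA, and the 3 Mir124a genes of neurons had 0 counts. The Mir124a genes share their mature sequence, and reads with several mapping places are not counted, so their 0 counts do not show that it was absent. The rest of the retina and neuron list, Mir182, Mir183 and Mir96, summed to 8430.1 ± 391 CPM. The libraries differed in the hepatocyte miRNA Mir122, which had 3957 counts in replicate 2 and 293 in replicate 1.

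The chromosome 19 cluster supplied nearly all counts of the genes for miR-192, miR-194 and miR-215. Mir192 had 824 counts in replicate 2 and 648 in replicate 1, and Mir194-2 had 477 and 370. Mir192 was thus at 224 CPM in replicate 2 (95% exact Poisson interval 209 to 239), against 125 CPM in replicate 1 (115 to 135), and averaged 174 ± 70.1 CPM (SD, n = 2). Mir194-2 was at 129 CPM in replicate 2 (118 to 142), against 71.1 CPM in replicate 1 (64.1 to 78.7), and averaged 100.3 ± 41.3 CPM. For either gene replicate 2 was the higher library, and the counting intervals of the replicates did not overlap. None of these reads lay on the opposite strand, where both genes had 0 counts in both libraries. Since these are bulk samples, fewer cells that express a miRNA and less of it per cell cannot be told apart.

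Within that cluster the proportion of its miRNAs was alike in both libraries. Mir192 had 1.73 counts for each count of Mir194-2 in replicate 2 (95% exact binomial interval 1.54 to 1.94) and 1.75 in replicate 1 (1.54 to 2.00). On the log2(CPM + 1) scale Mir192 exceeded Mir194-2 by 0.79 ± 0.01 (SD, n = 2). Since reads of miR-194-5p alone may be lost to the tally of several places, that difference may be too large.

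The chromosome 1 cluster was at the limit of what the depth can show. Mir215, the gene of the miR-192 seed there, had 0 counts in replicate 2. In that library 3 counts would be 0.814 CPM, and the 95% exact Poisson interval of Mir215 reached 1.00 CPM. In replicate 1 Mir215 had 5 counts, or 0.961 CPM (0.312 to 2.24). Mir194-1 had 4 counts in replicate 2, or 1.09 CPM (0.296 to 2.78), and 3 counts in replicate 1, or 0.577 CPM (0.119 to 1.69). Both genes also had a single count on the opposite strand in replicate 2, and Mir194-1 another in replicate 1. With so few counts the replicates overlap, and no difference between them was detectable at this depth. Against Mir215, Mir192 was 275-fold higher in replicate 2 when Mir215 was set at the floor of 3 counts, with a 95% exact binomial lower limit of 223. In replicate 1 Mir192 had 129.6 times the counts of Mir215 (55.3 to 400.5). Taking both libraries together, Mir215 held 0.339% of the counts of the genes with the UGACCUA seed (95% exact binomial interval 0.110 to 0.788). Mir194-1 held 0.820% of the counts of the miR-194 genes (0.330 to 1.68), a share that may leave out or misplace reads of the common 5p strand.

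Mir204 lay in the range of the chromosome 19 cluster genes, while its partner Mir211 was at the limit of detection. Mir204 had 500 counts in replicate 2 and 815 in replicate 1. These came to 136 CPM in replicate 2 (124 to 148), against 157 CPM in replicate 1 (146 to 168), and averaged 146 ± 14.8 CPM (SD, n = 2). Replicate 1 was the higher, with intervals that overlap slightly. Mir211, the miRNA of the melanocyte gene Trpm1, had 3 counts in replicate 2, or 0.814 CPM (0.168 to 2.38), and 1 count in replicate 1, or 0.192 CPM (0.00487 to 1.07). Mir204 had 167 times the counts of Mir211 in replicate 2 (56.7 to 811) and 815 times in replicate 1 (146 to 32229.8). Of the counts of both genes in both libraries, Mir211 held 0.303% (0.0827 to 0.775), a share that may include misread Mir204 reads. On the log2(CPM + 1) scale the difference, Mir204 minus Mir211, was 6.64 ± 0.57.

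**Figure D2:**
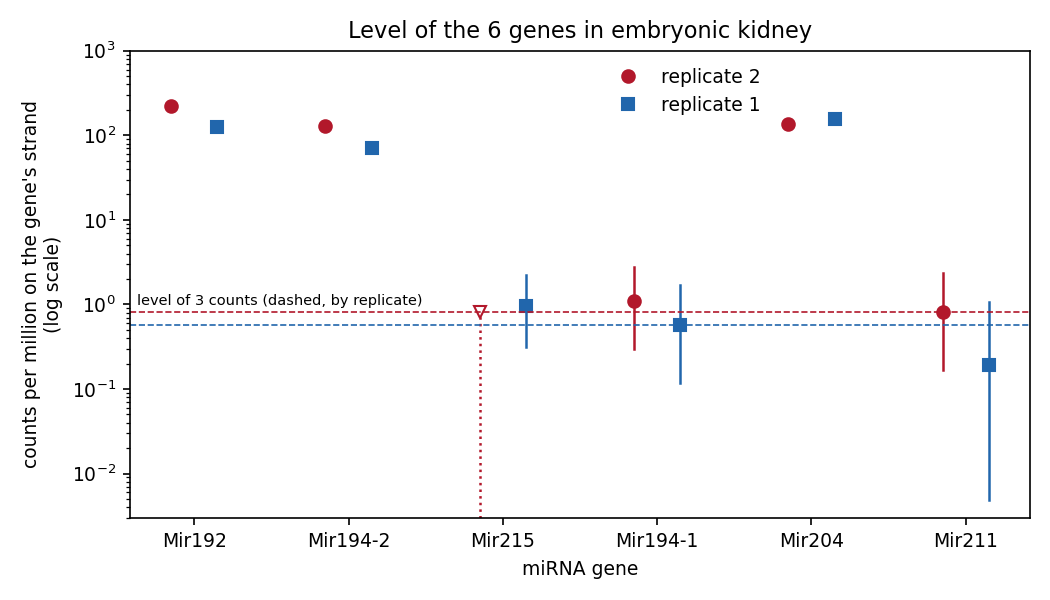
CPM on the strand of the gene, on a log axis, for each gene in replicate 2 (circles) and replicate 1 (squares), with 95% exact Poisson intervals. Mir192, Mir194-2 and Mir204 lie between 71.1 and 224 CPM, and the other 3 genes lie around the level of 3 counts (dashed lines), with an open triangle at that level for Mir215, which had 0 counts in replicate 2.

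From high to low, the mean levels were 174 ± 70.1 CPM for Mir192, 146 ± 14.8 CPM for Mir204 and 100.3 ± 41.3 CPM for Mir194-2. Far below these came Mir194-1 at 0.831 ± 0.360 CPM, Mir211 at 0.503 ± 0.440 CPM and Mir215 at 0.481 ± 0.680 CPM. The order of the first 3 was not fixed: Mir192 was above Mir204 in replicate 2 and below it in replicate 1. Mir204 and Mir194-2 had overlapping intervals in replicate 2 and separate ones in replicate 1. The last 3 did not differ beyond their counting intervals in either library.

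Set among all miRNA genes, the abundant members stood in the middle of the detected range. Of the 6 members 3 were detected, beside 17.5% of the 1973 annotated genes, and 6 had a count in at least 1 library, beside 36.3%. Mir192 ranked 150, Mir204 ranked 158 and Mir194-2 ranked 179 by mean level among the 345 detected genes, whose median was 114 CPM. Among the 716 genes with a count in either library, whose median was 2.27 CPM, the mean level of Mir192 exceeded 79.1% of genes, that of Mir204 77.9% and that of Mir194-2 75.0%. Mir194-1, Mir211 and Mir215 exceeded 37.6%, 27.2% and 26.7%. Reads that map to several places are left out of all these counts. Genes that share a mature sequence, Mir194-2 among them, may thus rank too low, and Mir192 and Mir204 too high. In replicate 2 Mir192 ranked 141 of these 716 genes and in replicate 1 it ranked 164, Mir194-2 ranked 164 and 197 in the same order, and Mir204 ranked 159 and 154.

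**Figure D3:**
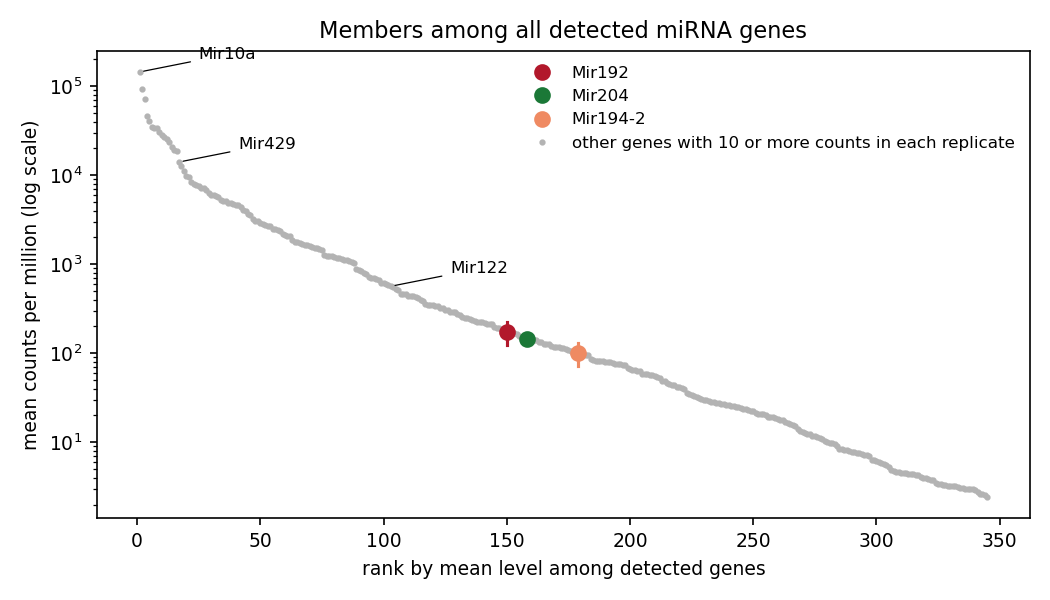
Mean CPM on a log axis against rank for the 345 detected genes, with Mir192, Mir204 and Mir194-2 as large points whose bars join the values of the 2 replicates. By mean level the 3 genes sit at ranks 150, 158 and 179, below Mir122 and far below the epithelial miRNA Mir429 and the most abundant gene, Mir10a. Mir122 owes that place to replicate 2, as in replicate 1 it was at 56.3 CPM, below all 3 genes.

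The summed levels of 2 other epithelial and nephron families were far higher. The chromosome 19 cluster summed to 274 ± 111 CPM and the Mir204 and Mir211 pair to 147 ± 14.4 CPM (SD, n = 2). The sums compared here cover unequal numbers of genes, and that of the chromosome 19 cluster may leave out reads of miR-194-5p. The miR-200 family, which keeps cells epithelial, was at 25144 ± 2342 CPM, and the miR-30 family, known from podocytes and the developing nephron, summed to 35874 ± 2665 CPM. Within the miR-30 sum Mir30a, Mir30d and Mir30e held most counts, while Mir30b at 117 ± 20.2 CPM, Mir30c-1 at 120.0 ± 22.3 CPM and Mir30c-2 at 75.6 ± 6.01 CPM lay near the detected members. Reads that map to several places are left out of these counts, so a gene that shares its mature sequence with another may be shown too low. Mir34a, Mir34b and Mir34c, further p53-responsive miRNA genes, summed to 743 ± 32.6 CPM, most of it from Mir34c at 619 ± 20.96 CPM. Among miRNAs of the pancreas, Mir216a, Mir216b and Mir217 were not detected, with at most 11 counts in a library, and Mir375 of endocrine cells was at 789 ± 6.95 CPM. Stratified epithelium was represented by Mir203 and Mir205, which summed to 2318 ± 127 CPM, and the endothelial Mir126a was at 46469 ± 1824 CPM. The 5 measured genes of stroma and smooth muscle summed to 25113 ± 435 CPM. Of the list for retina and neurons, Mir182, Mir183 and Mir96 summed to 8430.1 ± 391 CPM.

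The genes nearest to the members by level in both libraries belonged to other families. Nearness was the Euclidean distance of log2(CPM + 1) over the 2 libraries, for which 2 points say little about a shared pattern. Mir152 and Mir300 were nearest to Mir192, at distances of 0.33 and 0.35, and Mir574 and Mir331 to Mir194-2, at 0.32 and 0.41. Mir669c and Mir31 were nearest to Mir204, at 0.07 and 0.10, with 130 CPM and 127 CPM in replicate 2 and 158 CPM and 153 CPM in replicate 1.

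Between the libraries, both genes of the chromosome 19 cluster were higher in replicate 2 by nearly the same factor, and Mir204 was slightly lower. Each of the 345 detected genes was tested with a two-sided exact binomial test, whose null share came from the TMM-scaled totals, and p-values were adjusted by Benjamini-Hochberg over these genes. It compares these libraries with counting error alone, not conditions or animals. Mir192 had a log2 ratio, replicate 2 over replicate 1, of 0.85 (95% exact interval 0.70 to 1.00; adjusted p = 2.21e-28, exact binomial test), or 1.80-fold (1.62 to 2.00). Mir194-2 had a log2 ratio of 0.87 (0.67 to 1.07; adjusted p = 1.92e-17, exact binomial test), or 1.83-fold (1.59 to 2.10). Mir204 had a log2 ratio of -0.20 (-0.37 to -0.04; adjusted p = 0.0268, exact binomial test), or 0.869-fold (0.775 to 0.972).

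Most detected genes passed such a test. The 3 detected members all did, at an adjusted p under 0.05 in either direction, beside 53.9% of the 345 genes. For 2 members the call was higher in replicate 2, as for 26.7% of the 345 genes, and for 1 it was lower, as for 27.2%. When a change of at least 1 on the log2 scale was also required, 0 members passed the exact binomial test, beside 3.19% of the 345 genes. An unadjusted p below 0.05 in that test was found for 3 members, and for 197 of the 345 genes. When the spread between the replicates was allowed for in edgeR's exact test with the common dispersion estimated from both libraries, a coefficient of variation of 0.199, no member passed (adjusted p = 0.991 for Mir192 and Mir194-2 and 1 for Mir204). The call of Mir204 was also lost with no count minimum (adjusted p = 0.0577, exact binomial test over 716 genes). The edgeR test has 1 library a side, and its dispersion comes from the same 2 libraries, so a failure to pass is partly built in and does not show that the levels were alike. The edgeR test called 2 genes, Mir122 and Mir6236, and 16 had an unadjusted p below 0.05 in it.

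The ratios of Mir192 and Mir194-2 stood high among the detected genes. The median absolute log2 ratio over all 345 was 0.24, and 23 genes had a larger ratio in size than Mir192 and 20 a larger one than Mir194-2, in either direction. In the direction of replicate 2, 11 genes had a ratio at least as high as that of Mir192, Mir192 included. Of these, 5 had a mean count of at least 100: Mir122, Mir29a, Mir137, Mir194-2 and Mir192, which were singled out after their values were seen. Mir204 had a smaller ratio in size than 189 of the 345 genes.

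The ratios of the members were then set against each other with a two-sided Fisher's exact test on the counts of each pair, in which the library totals cancel, with Benjamini-Hochberg adjustment over the 3 pairs of detected members. For Mir192 minus Mir194-2 the log2 ratios differed by -0.02 (95% interval -0.27 to 0.23; adjusted p = 0.896, Fisher's exact test), so any difference in that range remains possible. For Mir192 minus Mir204 the difference was 1.05 (0.83 to 1.27; adjusted p = 7.33e-21, Fisher's exact test), and for Mir194-2 minus Mir204 it was 1.07 (0.81 to 1.33; adjusted p = 1.10e-16, Fisher's exact test). These too are tests of the reads of 2 libraries.

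The likeness of Mir192 and Mir194-2 was compared with that of other neighbours. Among 61 pairs of adjacent detected genes on the same strand no more than 1000 bases apart, the median absolute difference of the log2 replicate ratio was 0.18. For Mir192 and Mir194-2 it was 0.02, and 3 pairs had a smaller one. The counting interval of that difference, -0.27 to 0.23, includes values as large as the median, so the pair cannot be called more alike than most. In mean level the neighbours of the 61 pairs differed by a median of 2.85 on the log2 scale, against 0.80 for Mir192 and Mir194-2, and 9 pairs differed less. This is a description, since pairs of one cluster share genes and a transcript. Reads that map to several places are left out, so genes that share a mature sequence, Mir194-2 among them, may be shown too low. The differences in level, and their median, may be off for that reason.

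**Figure D4:**
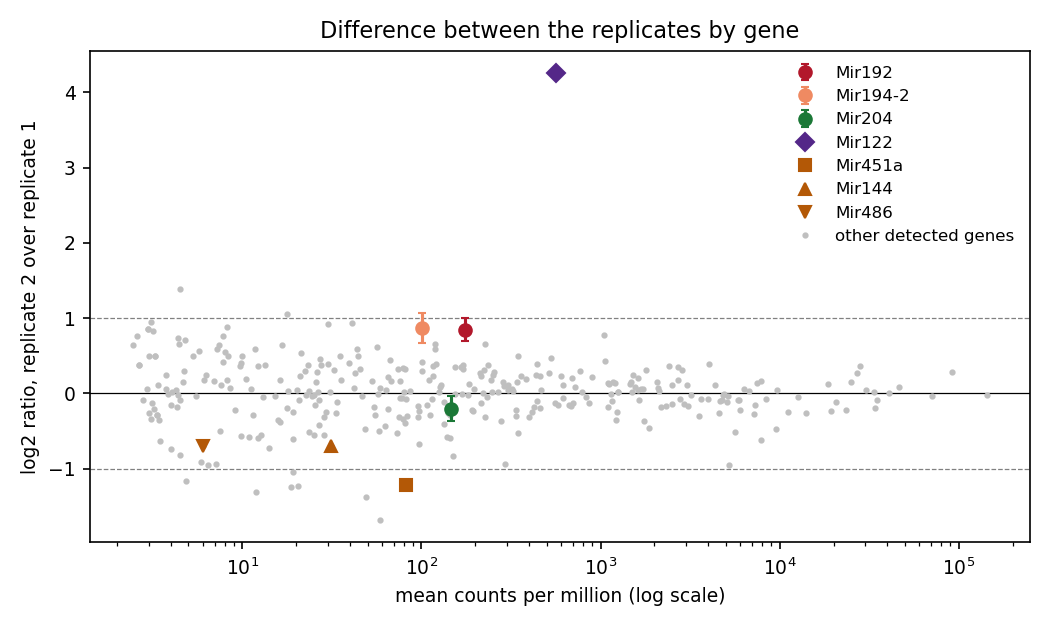
Log2 ratio of replicate 2 over replicate 1 against mean CPM (log axis) for the 345 detected genes, with 95% exact intervals for Mir192, Mir194-2 and Mir204 and dashed lines at 1 and -1. Mir192 at 0.85 and Mir194-2 at 0.87 lie near the upper edge of genes of their level, Mir204 at -0.20 lies within them, and Mir122 at 4.26 stands far above all others.

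Markers of other cell types also differed between the libraries in which Mir192 and Mir194-2 differed. The hepatocyte list was the single gene Mir122, with 1074 CPM in replicate 2, against 56.3 CPM in replicate 1, a log2 ratio of 4.26. Liver cells are also known to express miR-192 and miR-194. The 3 erythroid genes summed to 77.6 CPM in replicate 2, against 161 CPM in replicate 1, and Mir451a and Mir144 passed as lower in replicate 2, at log2 ratios of -1.22 and -0.70, while Mir486, at -0.70, did not pass (exact binomial test with counting error alone). The part of liver or blood RNA in the ratios of Mir192 and Mir194-2 was not tested. These counts are to be read beside the 26.7% of all detected genes called higher and the 27.2% called lower, and of the listed genes only Mir122 passed in edgeR's test. Of the 5 miR-200 genes 4 passed as lower in replicate 2 and 0 as higher, with a median log2 ratio of -0.12, and among the 6 miR-30 genes 2 were called higher and 3 lower. Of the 3 miR-34 genes 0 passed in either direction in the exact binomial test, with a median of -0.17 and no unadjusted p below 0.05. Such an unadjusted p was found for 197 of the 345 detected genes.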

How the data were processed

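For each of the 2 libraries the authors deposited raw, unnormalized read counts of annotated miRNA genes as a table. Per the deposited file descriptions, reads were aligned to mm10 and counted on GENCODE M4, with aligner and counter not given in the sources used here. Of the 3 count columns, 1 holds the strand of the gene, which was used here, 1 the opposite strand, and 1 both together, which checked as their sum in all 1973 gene rows. The first 4 rows are tallies and were left out of totals; reads that mapped to several places, on no feature or nowhere made up 27.5%, 2.91% and 14.1% of reads in replicate 2 and 28.3%, 4.06% and 16.8% in replicate 1.

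Symbols and positions came from GENCODE M21 (1894 of 1973 identifiers matched without version) and sequences from RefSeq. With 1 group there is no contrast for edgeR's quasi-likelihood model. Members, lists, tests and alternatives were chosen with earlier results of these data known. Named genes were the 6 members, the 2 nearest genes of each detected member, the marker lists and genes within 10000 bases on the same strand. Outside this rule, Iars2 was named as the gene opposite a cluster and the gene of miR-7670-3p for its seed, and Mir6236, Mir29a and Mir137 were named after their values were seen; the comparison of adjacent pairs was also added then. Alternatives were other counts, totals, scaling, minimums, pseudocounts and tests, and each replicate alone. The ratio test was tested on simulated counts with counting error alone, so that check does not cover spread between replicates. Scaling and edgeR tests ran in R 4.3.3 (edgeR 4.0.16, with size factors from DESeq2 1.42.0), exact tests in scipy 1.17.1 under Python 3.11.15, tables in pandas 2.3.3 with numpy 2.4.6, and plots in matplotlib 3.10.9.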

Additional observations from a re-analysis of the deposited data

How the results depend on the processing

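Of 93 values under alternative settings, 71 kept their direction and side of the threshold or stayed within the spread between replicates, 15 moved, 7 lost their call and none reversed. The 71 include values that could not have moved. Each replicate alone lies within that spread by construction with n = 2, for levels and level differences alike. Differences of the replicate ratio could not change with both strands, as the detected members had no counts on the opposite strand. Numbers of genes were judged by their ratio to the reported number. With all reads as the denominator, levels per 1000000 reads were 91.9 for Mir192, 52.95 for Mir194-2 and 75.9 for Mir204, lower by construction; without the most abundant gene in the totals Mir204 was at 171 CPM. With 1 replicate alone, Mir192 ranged from 125 to 224 CPM, Mir194-2 from 71.1 to 129 and Mir204 from 136 to 157. With no count minimum, more genes entered the adjustment and Mir204, at a log2 ratio of -0.20, had an adjusted p of 0.0577 in the exact binomial test; over the other binomial settings it passed. In edgeR's exact test with an assumed coefficient of variation of 0.2 or the estimated dispersion, the log2 ratios of 0.85 for Mir192, 0.87 for Mir194-2 and -0.20 for Mir204 no longer passed (adjusted p of 0.991 to 1), and 2 genes passed with or without the minimum ratio, against 186 and 11 in the binomial test. With a pseudocount of 5 CPM the log2 differences were 0.77 for Mir192 minus Mir194-2, 4.98 for Mir192 minus Mir215, 4.12 for Mir194-2 minus Mir194-1 and 4.78 for Mir204 minus Mir211; with 0.5 CPM the last 2 were 6.21 and 7.26. The differences from Mir215, Mir194-1 and Mir211 depend on the pseudocount, as these genes had at most 5 counts in a library. No paired analysis was possible because there is 1 group.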
